A study of Homo sapiens with 6 samples.

Results

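Wnt and beta-catenin pathway genes were followed in H661 cells after knockdown of SALL4, a zinc finger transcription factor of stem cells. The list holds 48 genes named by their role in the pathway, and it was drawn up with earlier results of these data known, DIXDC1 among them. Of these, 46 had a probe set with exactly 1 gene symbol among the 18404 genes tested, and TCF7 and PORCN were not analysed here. H661 is a human large cell lung carcinoma line, and its cells received by lentivirus either a scramble shRNA (Scr-sh) or 1 shRNA against SALL4 (SALL4-sh), with 3 Affymetrix arrays per group. Both groups thus carried an shRNA vector, and a second hairpin or an untransduced sample was not analysed here. The study's general statement on statistics names independent experiments, but no source used here says whether these arrays in particular stem from separate cultures, so p-values reflect how far these samples scatter, and part of that scatter may be technical.

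SALL4 had normalized intensities of 126, 104 and 130.2 in Scr-sh and 33.6, 31.9 and 26.5 in SALL4-sh. The groups did not overlap, and SALL4 changed by -1.97 on the log2 scale (adjusted p = 0.0159 from limma). Values are linear intensities in which everything under 8 was set to 8, called the floor below, and a gene at the floor has only an upper bound. Of the markers listed for lung epithelial and carcinoma cells, EPCAM ranged from 589.8 to 1113 over the 6 arrays and KRT18 from 28.8 to 76.7. VIM, in the same list but not specific to epithelium, ranged from 940.5 to 1615. The other 8 of these 11 markers were weak on all arrays, both the epithelial KRT7, KRT8, KRT19 and CDH1 and the lung markers NKX2-1, NAPSA, SFTPB and SFTPC, with a highest value of 17.3 among them. All 4 endothelial markers stood at the floor on every array, and so did 4 of 7 leukocyte markers, PTPRC among them. Of 5 fibroblast markers, DCN was at the floor, LUM left it on 1 array and PDGFRB stayed near it. COL1A1 went from 50.1 ± 1.43 to 35.9 ± 2.33 (SD, n = 3, adjusted p = 0.0387, filtered adjusted p = 0.0725, both from limma, the filter being explained below). COL1A2, which makes up most of the list's summed level, went from 249.7 ± 35.2 to 145 ± 27.5 (SD, n = 3, adjusted p = 0.132, filtered adjusted p = 0.0303, both from limma). The summed level of the 5 ranged from 289.5 to 358 in Scr-sh and from 187 to 237 in SALL4-sh, and the part of this difference in the members' values was not tested. A lower intensity in such a bulk sample can come from less RNA per cell or from fewer cells that hold the RNA, and the arrays cannot tell these apart.

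In the canonical Wnt pathway, a secreted Wnt protein binds a Frizzled receptor and an LRP co-receptor, and the signal passes through Dishevelled. Without Wnt, a complex of Axin, APC, casein kinase 1 alpha and GSK3 phosphorylates beta-catenin and marks it for degradation. With Wnt, beta-catenin builds up and acts with TCF and LEF factors in the nucleus. The pathway directs the growth and branching of the lung in development and the renewal of its epithelium.

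Of the 46 measured members, limma called 3 higher in SALL4-sh and 0 lower, with a threshold of 0.05 on the adjusted p. The share of members called was 6.52%, beside 2.51% of all genes tested (1.18% higher and 1.33% lower). The members called were DIXDC1, CSNK1A1 and FRZB, which belong to different steps of the pathway. At an unadjusted p under 0.05, 5 members were higher and 5 lower, where 17.4% of all genes passed (9.55% higher and 7.87% lower). Over all measured members the median log2 fold change was 0, the same as over all genes. Of the 42 members that left the floor on at least 1 array, 12 had groups that did not overlap, which is 28.6% of them beside 27.5% of all genes of that kind (15.0% higher and 12.5% lower). Those 12 divided evenly into 6 higher and 6 lower in SALL4-sh. Once the weakest probe sets, up to the 25th percentile of mean intensity, had been removed ahead of the test, 5 of 41 members were higher and 2 lower, beside 11.3% of all genes called in either direction (5.85% higher and 5.47% lower). FZD5 and FZD6 joined the members that were higher under that filter, and TCF7L1 and FZD4 were the pair that were lower. With the filter and 1 array left out, FZD4 was called in 2 of 6 fits and TCF7L1, FZD5 and FZD6 in 1 each. Values with that filter are given below as the filtered adjusted p, also from limma.

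**Figure D1:**
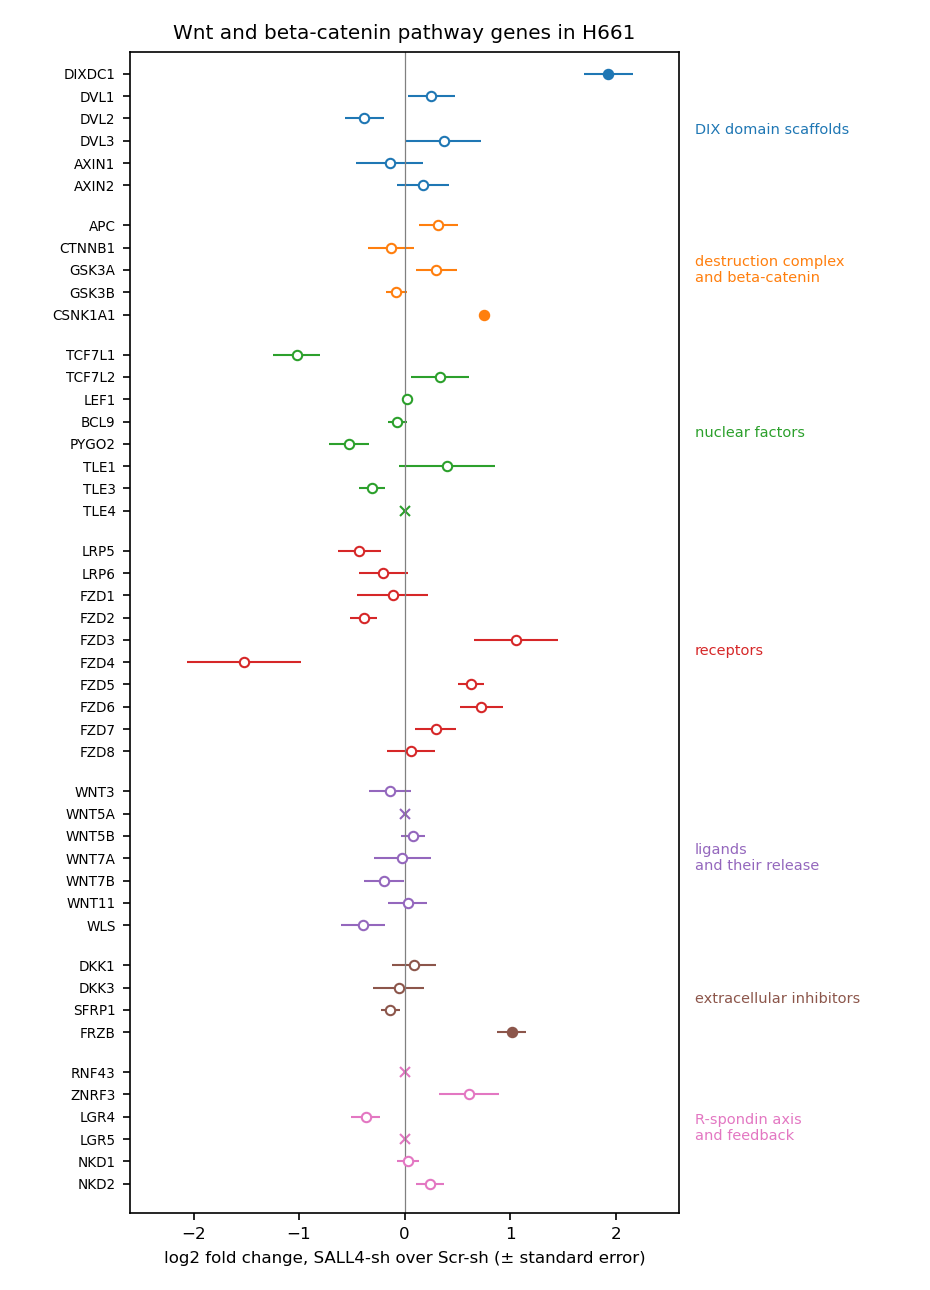
Log2 fold change of each of the 46 measured members, SALL4-sh over Scr-sh with 3 arrays per group, on the x axis, with the genes in rows by role, each bar showing the standard error. Filled points are the 3 members with an adjusted p under 0.05 from limma, open points the other members, and crosses the 4 members at the floor on all 6 arrays, and most open points lie near 0.

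The promoter sequences of the 3 members called are shown because these genes moved in the same direction and their windows can be set side by side. Each is the 250 bases before an annotated RefSeq start on GRCh38.p14, written 5′ to 3′ on the gene's own strand. Where the table holds several starts, the most upstream is shown, which is 1 of 3 for DIXDC1 and 1 of 2 for CSNK1A1, whereas FRZB has 1. DIXDC1 lies at chr11:111927065-111927314 (+ strand), CSNK1A1 at chr5:149551440-149551689 (- strand) and FRZB at chr2:182866638-182866887 (- strand). Capitals mark the letters CTTTG, the core bound by TCF and LEF factors, read on either strand.
DIXDC1: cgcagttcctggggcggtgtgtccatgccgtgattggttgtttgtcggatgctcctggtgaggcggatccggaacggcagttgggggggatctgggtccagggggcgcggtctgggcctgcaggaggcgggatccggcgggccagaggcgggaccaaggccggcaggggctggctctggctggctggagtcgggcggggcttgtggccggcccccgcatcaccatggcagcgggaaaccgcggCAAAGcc
CSNK1A1: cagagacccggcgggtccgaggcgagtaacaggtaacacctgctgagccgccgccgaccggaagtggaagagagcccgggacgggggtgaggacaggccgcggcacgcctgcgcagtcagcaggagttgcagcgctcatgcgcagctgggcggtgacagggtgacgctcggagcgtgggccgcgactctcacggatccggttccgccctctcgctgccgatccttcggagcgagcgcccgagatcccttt
FRZB: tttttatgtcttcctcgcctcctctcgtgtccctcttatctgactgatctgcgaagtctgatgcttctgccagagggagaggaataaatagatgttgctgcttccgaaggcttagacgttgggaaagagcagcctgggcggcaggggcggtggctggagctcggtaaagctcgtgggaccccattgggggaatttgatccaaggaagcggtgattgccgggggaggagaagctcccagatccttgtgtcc

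The core CTTTG stood once in the DIXDC1 window shown, as its reverse complement CAAAG next to the start. The other DIXDC1 windows, not shown, did not hold it on either strand. It was not in the windows shown for CSNK1A1 and FRZB. Over all 34943 promoter windows of 250 bases, 42.1% held CTTTG on 1 strand or the other. RefSeq windows were at hand for 35 members, with 50 starts in all, and 14 of the 50 windows (28.0%) held it. The longer CTTTGAT, which contains CTTTG, was in 2.27% of all windows and in 0 of the 50. The GC box letters CCGCCC, also read on both strands, were in 34 of the 50 (68.0%) and in 42.5% of all windows, and each of the 3 windows shown holds them. A match is a run of letters and not a bound site, and SALL4 binding was not measured on these arrays.

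DIXDC1 encodes a protein with a DIX domain, the module through which Dishevelled and Axin polymerise, and acts as a positive regulator of Wnt signaling. Its normalized intensity was 15.1, 24.5 and 17.2 in Scr-sh and 61.1, 82.1 and 69.8 in SALL4-sh. Every SALL4-sh array was above every Scr-sh array by a wide gap, and none of the values stood at the floor. The means were 18.9 ± 4.93 for Scr-sh and 71 ± 10.5 for SALL4-sh (SD, n = 3 each), a ratio of 3.81 (95% interval 2.49 to 5.84). On the log2 scale this is 1.93 (standard error 0.23, adjusted p = 0.0397, filtered adjusted p = 0.00155, both from limma). A two-sided exact permutation of its group labels gave p = 0.1, and 3 against 3 arrays cannot give a smaller one. The study lists DIXDC1 among its changed genes on these same samples, so its rise here is not independent evidence. When any 1 array was left out, its log2 fold change stayed between 1.78 and 2.13. Without the filter 1 of those 6 limma fits called it, the one that left out Scr-sh replicate 2 (adjusted p = 0.0378, with up to 0.140 in the others), and with the filter all 6 did.

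None of the other 5 DIX domain genes was called. DVL1, DVL2 and DVL3 encode the Dishevelled proteins, which recruit Axin to the receptor. DVL1 had intensities of 34.5, 24.8 and 35.4 in Scr-sh and 41.5, 29.5 and 41.8 in SALL4-sh. DVL2 had intensities of 36.8, 25.6 and 27.5 in Scr-sh and 20.3, 26.3 and 21.98 in SALL4-sh. DVL3 had intensities of 36.3, 22.2 and 52.98 in Scr-sh and 47.3, 47.7 and 40.8 in SALL4-sh. In each Dishevelled gene the groups overlapped, with log2 fold changes of 0.25 for DVL1, -0.38 for DVL2 and 0.37 for DVL3. AXIN1, the main scaffold of the destruction complex, gave 17.7, 23.9 and 16.6 in Scr-sh and 17.9, 12.1 and 24.2 in SALL4-sh. AXIN2, a scaffold that is itself a widely used target gene of beta-catenin, gave 10.6, 16.6 and 10.7 in Scr-sh and 11.4, 15.9 and 14.99 in SALL4-sh. Their groups overlapped too, with log2 fold changes of -0.14 and 0.18. Adjusted p-values of these 5 genes from limma lay between 0.420 and 1.00.

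The difference was taken on each array as the log2 intensity of DIXDC1 minus that of another DIX domain gene, so that only the change of this difference between groups is read. DIXDC1 was set against its family with its rise on these samples known, so the comparison describes that rise and is no independent evidence of it. The rise of DIXDC1 exceeded the change of DVL1 by 1.68, of DVL2 by 2.31, of DVL3 by 1.56, of AXIN1 by 2.07 and of AXIN2 by 1.75 on the log2 scale. The standard errors of these differences ran from 0.081 against AXIN2 to 0.557 against DVL3. In all 5 pairs the groups did not overlap, and each exact two-sided permutation test gave p = 0.1, which stayed 0.1 after Benjamini-Hochberg adjustment over the 5 pairs and cannot be lower at this size. The 5 differences kept their direction under median centring, cyclic loess and quantile normalization and with any 1 array left out.

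**Figure D2:**
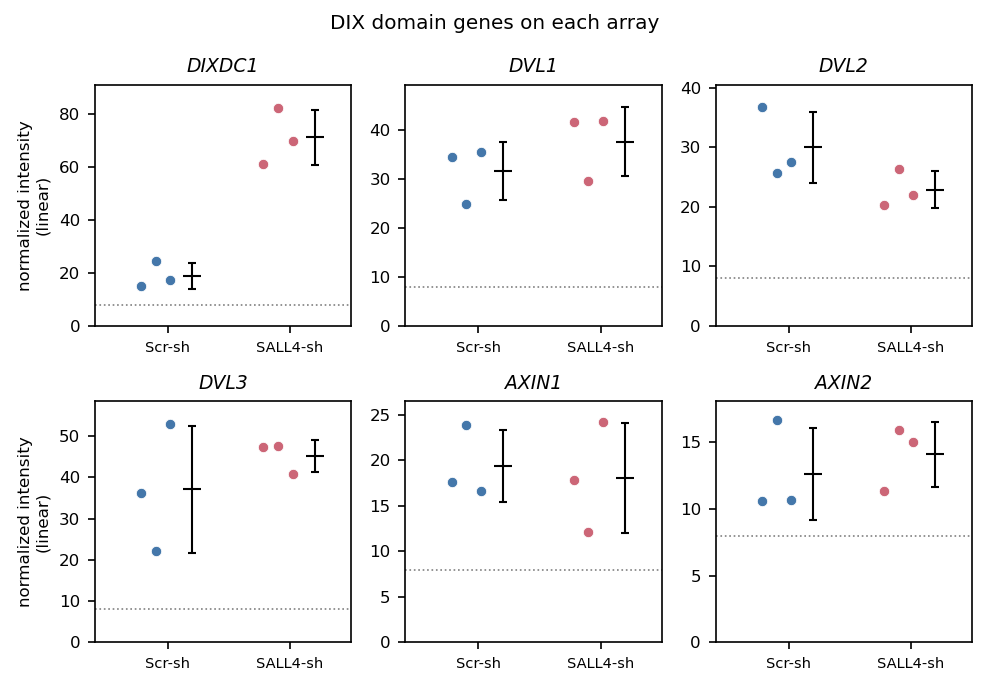
Normalized intensity on each array (y axis, linear, from 0) of the 6 DIX domain genes in Scr-sh and SALL4-sh, with the mean and SD of 3 arrays as a bar beside the points and the floor of 8 as a dotted line. DIXDC1 lies between 15.1 and 24.5 in Scr-sh and between 61.1 and 82.1 in SALL4-sh, whereas the groups of the other 5 genes overlap.

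Within the destruction complex and its substrate, 1 of 5 genes was called. CSNK1A1, the casein kinase that places the priming phosphate on beta-catenin, had intensities of 182, 190.3 and 177 in Scr-sh and 293, 307 and 326 in SALL4-sh. The spread within each group was small beside the distance between them, with means of 183 ± 6.85 for Scr-sh and 309 ± 16.6 for SALL4-sh (SD, n = 3 each). The ratio was 1.69 (95% interval 1.53 to 1.86), or 0.75 on the log2 scale (standard error 0.05, adjusted p = 0.0159, filtered adjusted p = 0.0135, both from limma). Its fold was the smallest of the 3 members called and its adjusted p the lowest. With 1 array left out, limma called it without the filter only when that array was Scr-sh replicate 2 (adjusted p = 0.0365, with up to 0.0760 in the others), and with the filter in 3 of 6 fits. It was also the 1 member called, as higher, by the one-way analysis of variance that the study names for these arrays, which called 1.48% of genes (0.648% higher and 0.834% lower).

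CTNNB1, which encodes beta-catenin, had intensities of 241, 166 and 189.9 in Scr-sh and 144, 212 and 192 in SALL4-sh. The groups overlapped, and the log2 fold change was -0.13 (adjusted p = 0.984 from limma). The ratio of SALL4-sh to Scr-sh for CTNNB1 was 0.917 with a 95% interval of 0.613 to 1.37, so a change of RNA inside these bounds was not excluded. The arrays measure RNA, whereas beta-catenin is controlled largely through the stability of its protein. APC, a scaffold that holds beta-catenin in the complex, and GSK3A and GSK3B, the kinases that phosphorylate it, had log2 fold changes of 0.32, 0.30 and -0.08, with overlapping groups and adjusted p-values from limma of 0.503 to 0.890.

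Among 8 measured nuclear factors, none passed the test without the filter. TCF7L1, a TCF factor that mostly represses target genes, had intensities of 131, 174 and 202 in Scr-sh and 87.3, 93.4 and 67.1 in SALL4-sh. All SALL4-sh values were below all Scr-sh values, at a ratio of 0.492 (95% interval 0.325 to 0.744). Its log2 fold change was -1.02 (adjusted p = 0.117, filtered adjusted p = 0.0161, both from limma), and it was also the 1 member called lower when genes that never left the floor were omitted. That choice, made after the data were seen, called 4 members higher and 1 lower, beside 8.57% of the genes tested (4.36% higher and 4.20% lower). TCF7L2, the TCF factor best known in the intestine, had 95.3, 52.2 and 91.8 in Scr-sh and 107, 90.6 and 94.6 in SALL4-sh. Its groups overlapped, as 2 of the Scr-sh arrays reached the level of the SALL4-sh arrays (log2 fold change 0.33).

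PYGO2, a Pygopus protein that bridges beta-catenin complexes to chromatin, had 17.5, 17.7 and 14.2 in Scr-sh and 13.6, 12.04 and 9.07 in SALL4-sh. TLE3, a Groucho-type co-repressor, had 27.7, 31.98 and 28.7 in Scr-sh and 27.4, 23.3 and 21.1 in SALL4-sh. Neither gene's groups overlapped, SALL4-sh being lower by a small margin in both, with log2 fold changes of -0.52 and -0.31 and filtered adjusted p-values from limma of 0.127 and 0.307. BCL9, the adaptor between beta-catenin and Pygopus, and TLE1, another co-repressor, had overlapping groups and log2 fold changes of -0.07 and 0.40. LEF1 stood at 8 on 5 arrays and at 8.36 on SALL4-sh replicate 1, and TLE4 was at the floor on all 6 arrays.

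Of 10 receptors, 6 had groups that did not overlap, 3 in each direction, beside 27.5% of all genes off the floor, although none was called without the filter. FZD3, a Frizzled known for axon guidance and planar cell polarity, had 42.4, 22.05 and 44.4 in Scr-sh and 101, 68.5 and 53.7 in SALL4-sh. The SALL4-sh values were all higher but spread widely, with a change of 1.05 on the log2 scale (standard error 0.40, filtered adjusted p = 0.0614 from limma). FZD5, a receptor of canonical and other Wnt proteins, had 36.1, 40.5 and 34.95 in Scr-sh and 58.1, 49.7 and 65.1 in SALL4-sh. Its ratio was 1.54 (95% interval 1.23 to 1.94), with an adjusted p of 0.0998 and a filtered adjusted p of 0.0430 from limma. FZD6, which acts in planar cell polarity, had 31.04, 50.3 and 35.8 in Scr-sh and 68.3, 62.2 and 59.5 in SALL4-sh, with the lowest SALL4-sh array above the highest Scr-sh array. Its log2 fold change was 0.73 (adjusted p = 0.181, filtered adjusted p = 0.0497, both from limma).

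FZD4, the receptor of norrin and of Wnt proteins in blood vessel growth, had 42.5, 117 and 32.4 in Scr-sh and 17.99, 18.8 and 20.02 in SALL4-sh. Every SALL4-sh array was lower, but Scr-sh replicate 2 was far above the other Scr-sh arrays. The log2 fold change of FZD4 was -1.52 (adjusted p = 0.263, filtered adjusted p = 0.0398, both from limma). Without Scr-sh replicate 2 it was -0.97 (adjusted p = 0.0840 from limma), and with the filter FZD4 was called without that array too. That array also stood apart in RIGI, an interferon-induced sensor of viral RNA, with Scr-sh intensities of 313, 935 and 309. RIGI in SALL4-sh was 44.3, 59.2 and 50.4, so every Scr-sh array was higher. IFIT2 and IFIH1, other interferon-induced genes, were also lower in SALL4-sh, with log2 fold changes of -3.58 and -3.08. Their filtered adjusted p-values from limma were 0.00247 and 0.00294, IFIT2 with 2 SALL4-sh arrays at the floor. Without the filter IFIT2, IFIH1 and RIGI did not pass the test, with adjusted p-values from limma of 0.0809, 0.0862 and 0.0694. The difference in these genes lies between the same groups as the knockdown, and its part in the values of FZD4 or of any other gene was not tested. Of the 41 members whose Scr-sh values varied, Scr-sh replicate 2 was the farthest from the group median in 19. Replicate 1 was so in 13 and replicate 3 in 9, and the same count over all genes was not made.

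FZD2, a receptor used by WNT5A, had 51.3, 37.6 and 43.8 in Scr-sh and 31.9, 34.8 and 34.2 in SALL4-sh. LRP5, a co-receptor of Frizzled, had 24.04, 18.7 and 20.5 in Scr-sh and 17.7, 17.9 and 12.03 in SALL4-sh. In both the SALL4-sh values lay just below the Scr-sh values, with log2 fold changes of -0.39 and -0.43 that did not pass the test with or without the filter. LRP6, the other co-receptor, and FZD1, FZD7 and FZD8 had overlapping groups, with log2 fold changes of -0.20, -0.11, 0.30 and 0.06.

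**Figure D3:**
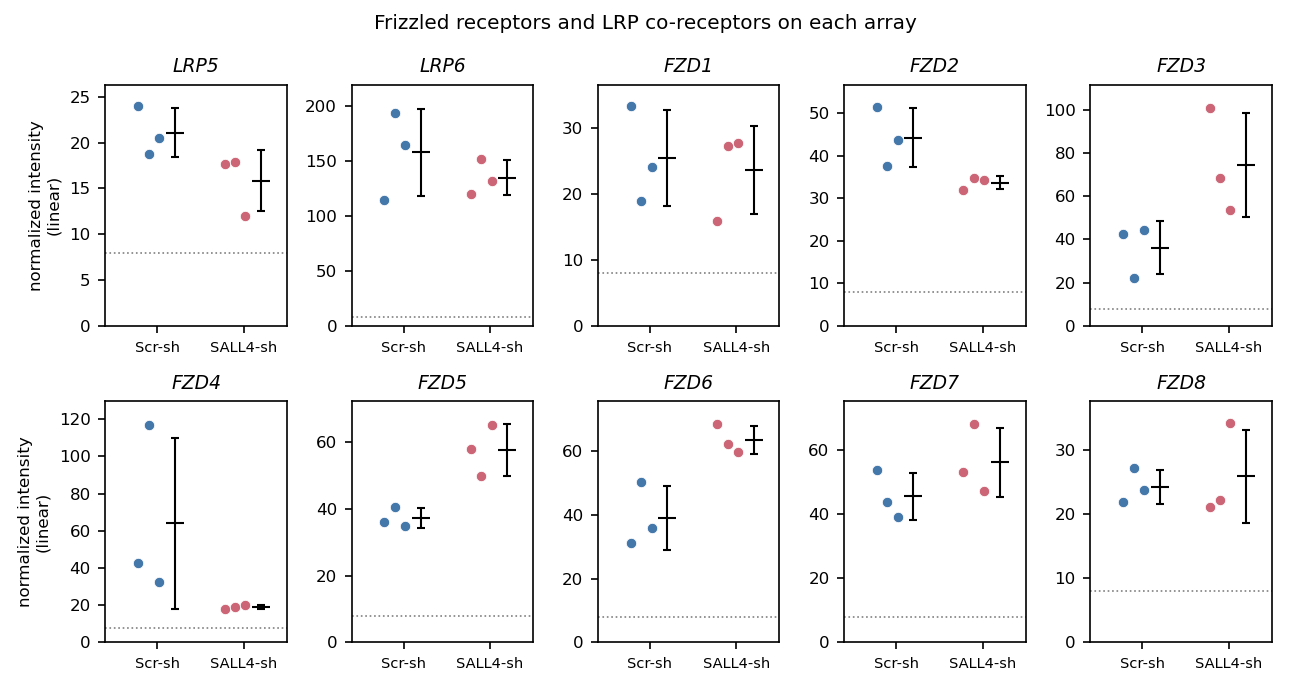
Normalized intensity on each array (y axis, linear, from 0) of the 8 Frizzled and 2 LRP genes in Scr-sh and SALL4-sh, with the mean and SD of 3 arrays beside the points and the floor of 8 dotted. FZD3, FZD5 and FZD6 have all SALL4-sh points above the Scr-sh points, LRP5, FZD2 and FZD4 have them below, and 1 Scr-sh point of FZD4 at 117 lies apart.

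Of 7 measured genes for ligands and their release, none was called and none had groups that did not overlap. WNT5A, the best known ligand of beta-catenin-independent signaling, was at the floor on all 6 arrays. The other 5 Wnt genes left the floor on every array. WNT3, a canonical ligand, lay between 19.6 and 30.5 over the 6 arrays, and WNT7B, which acts in lung branching, between 8.98 and 14.3. WNT5B, WNT7A and WNT11 also had overlapping groups. The log2 fold changes of the 5 genes ranged from -0.19 for WNT7B to 0.08 for WNT5B. WLS, which carries Wnt proteins to the cell surface, had 12.7, 15 and 18.3 in Scr-sh and 12.01, 13.7 and 9.35 in SALL4-sh, with 1 SALL4-sh value inside the Scr-sh range and a change of -0.39 on the log2 scale (adjusted p = 0.479 from limma). At intensities this near to 8 the floor leaves little room to measure a decrease.

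FRZB was the member called among 4 extracellular inhibitors. It encodes a secreted Frizzled-related protein, also named SFRP3, which binds Wnt proteins outside the cell. Its intensities were 97.1, 74.7 and 90.2 in Scr-sh and 169.6, 199 and 161 in SALL4-sh, and the lowest SALL4-sh array was well above the highest Scr-sh array. The means were 87.3 ± 11.5 for Scr-sh and 176 ± 19.7 for SALL4-sh (SD, n = 3 each), a ratio of 2.02 (95% interval 1.57 to 2.61). On the log2 scale this is 1.02 (standard error 0.14, adjusted p = 0.0490, filtered adjusted p = 0.00727, both from limma). Its adjusted p without the filter lay just under the threshold, and it rose above it under median centring, cyclic loess and quantile normalization and when any 1 array was left out (adjusted p of 0.0686 to 0.148 from limma). With the filter it was called with every array left out in turn.

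DKK1, which blocks the LRP co-receptors and is itself induced by Wnt signaling, had 182, 224 and 133 in Scr-sh and 185, 184 and 192 in SALL4-sh. The SALL4-sh values lay inside the wider Scr-sh range, with a log2 fold change of 0.09. DKK3, a divergent Dickkopf protein, and SFRP1, a further secreted Frizzled-related protein, had overlapping groups and log2 fold changes of -0.06 and -0.13. A second DKK3 probe set lay at the floor or just above it on all arrays, and SFRP1 ranged from 8.27 to 10.5.

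The R-spondin axis and the feedback regulators gave no call. LGR4, a receptor of R-spondins that strengthen Wnt signals, had 66.8, 70.1 and 58.9 in Scr-sh and 47.3, 45.4 and 59.4 in SALL4-sh. A single SALL4-sh array reached into the Scr-sh range, and the log2 fold change of LGR4 was -0.37 (adjusted p = 0.276 from limma). ZNRF3, a ubiquitin ligase that removes Frizzled from the surface, had 18.2, 25.3 and 14.5 in Scr-sh and 37.3, 25.2 and 25.3 in SALL4-sh. Its groups overlapped, with a log2 fold change of 0.61 (filtered adjusted p = 0.154 from limma). RNF43, the related ligase, and LGR5, a stem cell receptor of R-spondins and a target of beta-catenin, were at the floor on all arrays. NKD1 and NKD2, which bind Dishevelled and dampen the signal, had overlapping groups and log2 fold changes of 0.03 and 0.24.

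**Figure D4:**
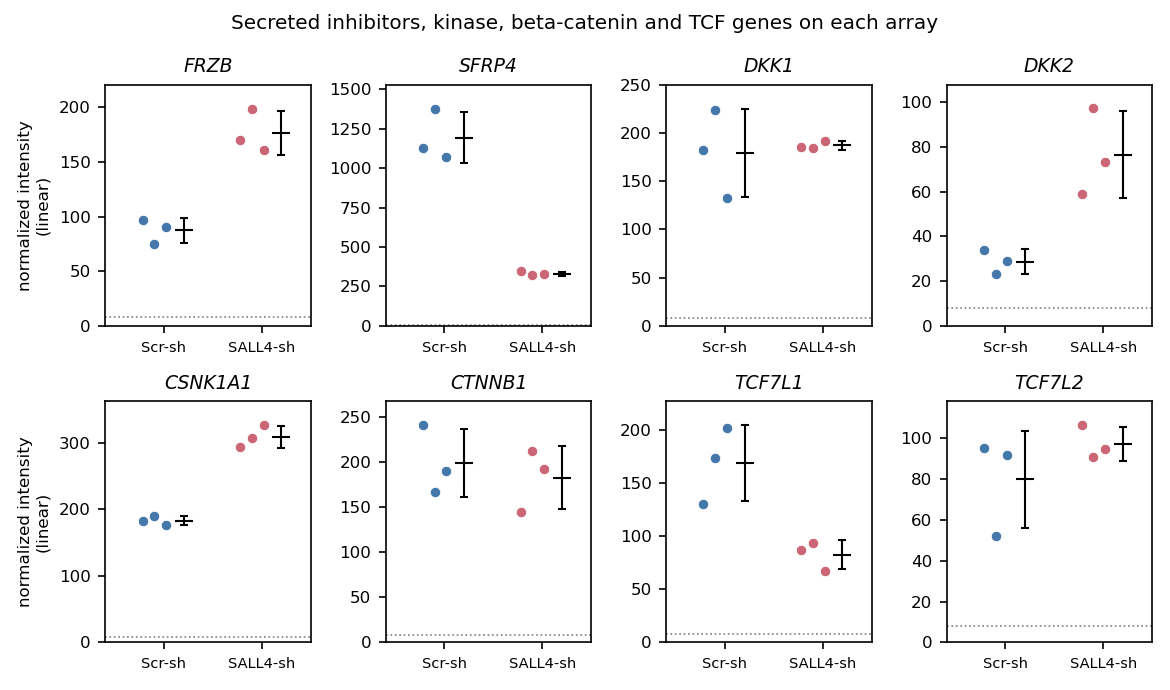
Normalized intensity on each array (y axis, linear, from 0) of 4 secreted inhibitors, CSNK1A1, CTNNB1 and 2 TCF genes in Scr-sh and SALL4-sh, with the mean and SD of 3 arrays beside the points and the floor of 8 dotted. FRZB, DKK2 and CSNK1A1 are higher in all SALL4-sh arrays, SFRP4 and TCF7L1 are lower in all, and DKK1, CTNNB1 and TCF7L2 overlap.

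Beyond the members, 128 further genes of the pathway were listed by role, and 123 of them were measured. Of these, limma called 1 higher and 2 lower. The median of their log2 fold changes was 0, with 9 genes at the floor on all arrays entering as 0. With the filter, 5 of 109 were higher and 6 lower. The shares called, 2.44% and 10.1% with the filter, were near those of all genes, 2.51% and 11.3%. The 17 other ligands and R-spondins gave no call with or without the filter, and WNT2B, WNT10A, RSPO4 and WNT9A, those with the lowest adjusted p, had log2 fold changes of -0.54, 0.19, 0.23 and -0.17.

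The largest fall among the listed pathway genes was that of SFRP4, a secreted Frizzled-related inhibitor of the same family as FRZB. Its intensities were 1131, 1376 and 1071 in Scr-sh and 347, 322 and 326 in SALL4-sh. All SALL4-sh arrays were far below the lowest Scr-sh array, a ratio of 0.279 (95% interval 0.228 to 0.342), with a change of -1.84 on the log2 scale (adjusted p = 0.0123, filtered adjusted p = 0.000678, both from limma). With 1 array left out, SFRP4 was called in 2 of 6 fits (adjusted p of 0.0149 to 0.0662 from limma) and in all 6 with the filter. FRZB and SFRP4 thus changed in opposite directions. DKK2, a Dickkopf protein that also acts on the LRP co-receptors, had 34.1, 23.1 and 28.98 in Scr-sh and 58.9, 97.4 and 73.5 in SALL4-sh, with all SALL4-sh arrays higher. The log2 fold change of DKK2 was 1.40, with an adjusted p of 0.0842 and a filtered adjusted p of 0.00590 from limma. SOST and APCDD1, further inhibitors, had log2 fold changes of -0.41 and -0.11 and were not called, so that 1 of 11 other inhibitors passed the test and 2 of 8 did so with the filter.

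RHOA, the small GTPase that carries Frizzled signals to the actin skeleton, fell from 1186 ± 61.9 to 638 ± 11.4 (SD, n = 3), which is -0.89 on the log2 scale (adjusted p = 0.00845, limma). It was the 1 of 19 planar cell polarity genes called, and leaving out SALL4-sh replicate 1 or 2 ended the call (adjusted p up to 0.0559 from limma). The filtered adjusted p of RHOA was 0.00635 from limma, and with the filter it was called whichever array was left out (up to 0.0389). MAPK8, the JNK kinase downstream of the same branch, had 21.6, 30.5 and 19.1 in Scr-sh and 48.4, 57.2 and 55.03 in SALL4-sh, with all SALL4-sh values higher and a filtered adjusted p of 0.00697 from limma. With the filter and 1 array left out it was called in 4 of 6 fits. ROCK2, an effector kinase of RHOA, and INVS, a switch between Wnt branches, had log2 fold changes of 0.70 and -0.67 with overlapping groups. The value of INVS is limited by 2 SALL4-sh arrays at the floor.

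CDH1, which encodes E-cadherin and anchors beta-catenin at cell junctions, had 10.5, 8 and 8.68 in Scr-sh and 17.2, 16.1 and 17.3 in SALL4-sh. SALL4-sh was higher by 0.91 on the log2 scale (adjusted p = 0.0456, limma), a value limited by 1 Scr-sh array at the floor. It was the 1 of 8 cadherin and catenin genes called, and leaving out any array but Scr-sh replicate 1 ended the call (adjusted p up to 0.155 from limma). The filtered adjusted p of CDH1 was 0.00973 from limma, and with the filter and 1 array left out it was called in 5 of 6 fits. CTNNA2, CTNND2 and JUP, catenins of the junction, had log2 fold changes of -0.61, -0.56 and -0.64. Their filtered adjusted p-values from limma were 0.0644, 0.0835 and 0.0929, and CTNND2 stood at the floor on 1 SALL4-sh array.

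Receptors, cytoplasmic regulators, nuclear partners and target genes outside the members gave no call without the filter. Among 13 other receptors, GPC4, a glypican that presents Wnt proteins, had a log2 fold change of -0.79 and was lower with the filter (filtered adjusted p = 0.0457 from limma), whereas ATP6AP2, FZD10 and TSPAN12 had 0.49, 0.14 and 0.25 and passed neither test. Among 18 cytoplasmic regulators, TNKS2, a tankyrase that marks Axin for degradation, was higher with the filter at a log2 fold change of 0.85 (filtered adjusted p = 0.0445 from limma). APC2, USP34 and PPP2CA had -0.24, 0.62 and 0.47, APC2 with 2 SALL4-sh arrays at the floor. BTRC, the F-box protein that recognises phosphorylated beta-catenin, was the other gene called there with the filter, at 1.09 (filtered adjusted p = 0.0437 from limma), and is named after its value was seen. With the filter and 1 array left out, GPC4, TNKS2 and BTRC were each called in 1 of 6 fits.

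TBL1X and TBL1XR1, paired exchange factors for co-repressors that bind beta-catenin, were both lower with the filter. TBL1X had 52.8, 27.9 and 49.5 in Scr-sh and 19.4, 17.9 and 18.3 in SALL4-sh. TBL1XR1 had 72.4, 62.6 and 101 in Scr-sh and 31.4, 44.1 and 39.03 in SALL4-sh. In both genes all SALL4-sh arrays were below all Scr-sh arrays, with filtered adjusted p-values from limma of 0.0160 and 0.0181. With 1 array left out as well, each was called in 1 of 6 fits, with adjusted p-values up to 0.107 for TBL1X and 0.0840 for TBL1XR1. CDC73 and CREBBP, co-activators that bind beta-catenin, had log2 fold changes of 0.61 and -0.21.

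Of 21 genes known as targets of beta-catenin and TCF, BAMBI, a decoy receptor of the TGF-beta family, was lower with the filter. Its intensities were 63.1, 96.8 and 73.2 in Scr-sh and 21.2, 22.2 and 35.7 in SALL4-sh, and it changed by -1.58 on the log2 scale (adjusted p = 0.0849, filtered adjusted p = 0.00494, both from limma). With the filter and 1 array left out it was called in 5 of 6 fits. TBXT, ID2 and TNFRSF19 had log2 fold changes of 0.24, -0.87 and -0.68 and were not called. The median log2 fold change of the 21 targets was -0.08, with 1 higher and 2 lower at an unadjusted p under 0.05 from limma. Of all genes, 17.4% passed that threshold (9.55% higher and 7.87% lower). AXIN2, DKK1, ZNRF3 and NKD1, members that are targets as well, were not called either. LGR5 and RNF43, also members and targets, read 8 on every array, so no call was possible for them. The same holds for MMP7 and NRCAM among the 21 targets.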

How the data were processed

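H661 cells with the scramble shRNA and with the SALL4 shRNA were profiled on 3 Affymetrix arrays each. The deposited table gives normalized intensity on a linear scale for 32321 probe sets. RMA is named in the submitters' processing notes, with no version. Values under 8 stand at exactly 8, and this floor takes up 38.8% to 40.4% of each array, so that weak signals cannot be compared. Labels and paper differ on serum and RNA kit. Precision is limited by the number of arrays.

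Log2 intensities were fitted with limma (version 3.58.1, under R 4.3.3) by lmFit and eBayes, with no trend, and p-values were adjusted by Benjamini-Hochberg over 18404 genes at a threshold of 0.05. Probe sets with 1 symbol in the platform annotation were used, and the one with the highest mean carried its gene. Ratios are those of geometric means with limma's 95% intervals. Exact two-sided permutation tests ran over the 20 labelings in Python 3.11.15 with scipy 1.17.1. The fit was also run on simulated data with changes placed only in brighter genes, and no result given here rests on that run. Alternatives were 3 normalizations, filters at the 25th and 50th percentile, eBayes with trend and robust, a block on replicate number, omission of each array, one-way ANOVA, averaging over the probe sets of a gene, unadjusted p-values and, chosen after seeing the data, omission of genes at the floor throughout and the 25th percentile filter with each array left out.

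The members and the lists of further pathway genes and markers were chosen with earlier results of these data known. The genes named were the 48 members, SALL4 and, of each further list, up to 4 genes with the lowest adjusted p off the floor. RIGI, IFIT2 and IFIH1 were chosen after their values were seen, and COL1A1 and other markers are named as checks. Promoters are RefSeq windows on GRCh38.p14.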

Additional observations from a re-analysis of the deposited data

How the results depend on the processing

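The 3 members called higher became 5 with the 25th percentile filter, 6 with the 50th percentile filter, 5 at an unadjusted p, 1 with one-way ANOVA and 0 with trend and robust, and the 0 called lower became 2, 2, 5, 0 and 0. Without genes that never left the floor there were 4 higher and 1 lower. Leaving out 1 array gave 0 to 2 higher and 0 lower, with DIXDC1 and CSNK1A1 called without Scr-sh replicate 2 and no member called without any other array. The filter together with a left-out array gave 2 to 5 higher and 0 to 1 lower, DIXDC1 and FRZB being called in all 6 fits and CSNK1A1 in 3. Genes that never left the floor show no spread, and limma's prior degrees of freedom were 0.422 with them and 2.35 without them, 5.22 with the 25th percentile filter and 5.77 with the 50th. None of the called members changed direction in any of these fits, whereas 12 members that were not called changed sign under at least 1 alternative, the largest of them with an absolute log2 fold change of 0.40.

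The further lists moved with the same filters. With either the 25th or the 50th percentile filter, calls in either direction went from 0 to 1 for other receptors and for target genes, from 0 to 2 for cytoplasmic regulators and for nuclear partners, and from 1 to 2 for extracellular inhibitors and for planar cell polarity. The cadherin-catenin genes had 0 calls with trend and robust and with one-way ANOVA. They also had 0 with the 50th percentile filter, but that filter removed CDH1, their called gene, before the test. Leaving out the genes at the floor gave 2 extracellular inhibitors, 2 nuclear partners, 1 target gene and 2 planar cell polarity genes. Cyclic loess and quantile normalization each gave 1 cytoplasmic regulator. Leaving out 1 array gave 0 to 1 calls among extracellular inhibitors, cytoplasmic regulators, nuclear partners and cadherin-catenin genes and 0 to 2 among planar cell polarity genes. SALL4 had a log2 fold change of -2.07 to -1.87 with 1 array left out, and its adjusted p from limma was under 0.05 without Scr-sh replicate 2 only (0.0309), reaching 0.0741 otherwise. With the filter SALL4 was called whichever array was left out (adjusted p up to 0.0196 from limma). Where no construction of the fit shows it, the cause of these shifts was not tested.

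The labels give replicate numbers only, and whether same-numbered arrays were paired is not known. Deviations from the group mean correlated at 0.144, 0.114 and 0.0003 for same-numbered arrays. For differently numbered arrays they ran from -0.152 to 0.0341. With 3 arrays per group these values cannot settle the question. With the replicate number as a block, 0 members were called higher or lower, as were 0 extracellular inhibitors, 0 planar cell polarity genes and 0 cadherin-catenin genes, and SALL4 kept its log2 fold change of -1.97 with an adjusted p of 0.115 from limma.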
